A study of Mus musculus with 6 samples.

Results

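Ccl3, Ccl4, Ccl6 and Ccl9 are 4 of the 12436 genes listed for single cells of mouse tibialis anterior muscle, and they were chosen as CC chemokine genes of macrophages. Each of the 6 libraries held pooled muscle of several male mice of 3 to 5 months. In every group the mice had the allele Gt(ROSA)26Sor<tm1(Fucci2aR)Jkn on a B6;129 background, a cell cycle reporter that Cre turns on, and the labels name no Cre. Hypothyroid mice ate an iodine-deficient diet with 0.15% propylthiouracil (PTU), a drug that blocks thyroid hormone synthesis, and control mice ate a matched diet. Muscle was taken uninjured (day 0), or 5 or 14 days after injection of cardiotoxin (CTX, 50 μg/ml), a snake toxin that kills muscle fibres. There was 1 library for each diet and day, so no difference between diets or days could be tested.

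CC chemokines are small secreted proteins that draw leukocytes along a gradient by binding receptors on their surface. Ccl3 and Ccl4, also known as macrophage inflammatory proteins, are made quickly by activated macrophages, NK cells and T cells. Ccl6 and Ccl9 are rodent chemokines of myeloid cells, and they and Ccl3 bind the receptor Ccr1. In injured muscle, monocytes enter and become macrophages that clear debris and later accompany repair.

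The 4 genes lie within 91.8 kb of chromosome 11 in GRCm39, the build of the files, with no other listed gene between them. Ccl9 (ENSMUSG00000019122.9) spans chr11:83463745-83469462, and Ccl6 (ENSMUSG00000018927.4) spans chr11:83478708-83483913. Ccl3 (ENSMUSG00000000982.6) spans chr11:83538670-83540181, and Ccl4 (ENSMUSG00000018930.4) spans chr11:83553410-83555509. Ccl6 and Ccl9 moved alike between the days, so the 250 bases before their start sites are printed beside those of Ccl3. The letters are those of the RefSeq promoter table (GRCm38.p6), which held 3 of the 4 genes, and each run was found once on GRCm39 chromosome 11, on the minus strand. They lie at chr11:83483914-83484163 (Ccl6), chr11:83469463-83469712 (Ccl9) and chr11:83540205-83540454 (Ccl3). Capitals mark the longest run that Ccl6 and Ccl9 share and, in Ccl3, the motif GAGGAA, read here on the other strand. GAGGAA is 1 form of the sites bound by ETS factors such as PU.1.
Ccl6: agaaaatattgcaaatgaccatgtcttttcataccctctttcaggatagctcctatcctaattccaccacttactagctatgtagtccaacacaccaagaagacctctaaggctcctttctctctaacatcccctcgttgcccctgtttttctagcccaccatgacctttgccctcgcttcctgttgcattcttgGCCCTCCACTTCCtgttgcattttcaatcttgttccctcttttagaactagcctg
Ccl9: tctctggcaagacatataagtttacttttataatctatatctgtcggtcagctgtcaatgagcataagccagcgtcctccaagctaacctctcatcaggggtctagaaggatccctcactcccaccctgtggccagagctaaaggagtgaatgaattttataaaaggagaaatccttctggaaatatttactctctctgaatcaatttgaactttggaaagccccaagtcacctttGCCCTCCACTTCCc
Ccl3: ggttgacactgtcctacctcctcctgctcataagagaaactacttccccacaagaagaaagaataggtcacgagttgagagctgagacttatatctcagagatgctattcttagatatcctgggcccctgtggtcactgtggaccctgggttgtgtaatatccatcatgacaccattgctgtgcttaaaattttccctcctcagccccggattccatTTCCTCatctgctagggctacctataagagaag
The shared run of 13 bases began 55 bases before the start in Ccl6 and 14 bases before it in Ccl9, and 5 promoters of the table held it on either strand. The longest run that Ccl3 shared with either was 8 bases. GAGGAA, searched on both strands, was in the window of Ccl3 and not in those of Ccl6 and Ccl9, against 23.3% of the 32851 promoters in the table. Other forms of such sites were not searched, and the shared run ends in TTCC, which reads GGAA on the other strand. These marks were chosen after the sequences were seen and describe the letters only.

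Values are UMIs, which stand for captured RNA molecules, summed over the cells of a class and given as CPM, the count scaled to a common total for each class, with exact 95% Poisson intervals. Ratios of CPM carry exact 95% binomial intervals. All intervals cover counting error only, not the spread between mice. The deposited columns form runs of ordered barcodes, and the first run of each library was used, 11207 cells in all. They hold between 2283737 and 23496529 UMIs per library, with medians of 3634 to 8055 UMIs per cell, and 12 barcodes recurred between libraries with no cell repeated. A cell was put in a class when at least 3 markers of 1 list were detected and that list led, which left 1243 cells without a class.

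The monocyte/macrophage gate, which used none of the 4 genes, held 1167 cells. It took 2 of 1152 cells in uninjured control muscle and 8 of 528 in uninjured hypothyroid muscle. On day 5 it held 325 of 2428 control cells (13.4%) and 614 of 2155 hypothyroid cells (28.5%). On day 14 it held 88 of 3294 control cells (2.67%) and 130 of 1650 hypothyroid cells (7.88%). All 12 of its markers were detected in each injured library, and their summed level was 12666 to 22846 CPM. The 10 genes that led these cells were Lyz2, C1qb, C1qa, Trem2, Pf4, C1qc, Ccl4, Ctss, Gpnmb and Ms4a7, so Ccl4 itself stood among them. Markers of NK cells summed to 13.2 to 42.0 CPM in the gate, and those of T cells to 29.6 to 81.9 CPM. FAP markers, of fibro-adipogenic stromal cells, gave 460.3 CPM in the control library and 1347 CPM in the hypothyroid library of day 5, and to 847 and 556 CPM on day 14. Markers of myocytes, the largest foreign sum in control day 5 and both day 14 libraries, stood at 1119 and 137 CPM on day 5, and at 8057 and 2141 CPM on day 14.

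Most UMIs of each gene came from this gate. It held 80.8% of the 3515 Ccl3 UMIs, 87.7% of the 43602 Ccl4 UMIs, 90.5% of the 2840 Ccl6 UMIs and 82.4% of the 3699 Ccl9 UMIs. In control muscle on day 5 it held 44.8% of Ccl3, and 111 of the 516 Ccl3 UMIs there lay in cells without a class. In the 34 pools of at least 20 lymphoid, vascular, stromal, glial or muscle-lineage cells, the median level was 1.52 CPM for Ccl3, 8.42 CPM for Ccl4, 0 for Ccl6 and 1.83 CPM for Ccl9. Ccl6 was at 0 in 19 of these pools, and Ccl3 in 12. The plot of levels by class shows the 4 monocyte/macrophage pools above the other classes of at least 20 cells in each gene. Of those, Ccl4 came closest in 28 myogenic progenitors of hypothyroid day 14, at 553 CPM (472 to 643), and all 167 of its UMIs there lay in 3 cells. Cells without a class are not plotted, and in hypothyroid muscle on day 5 their Ccl4 was at 1239 CPM (1192 to 1287).

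**Figure D1:**
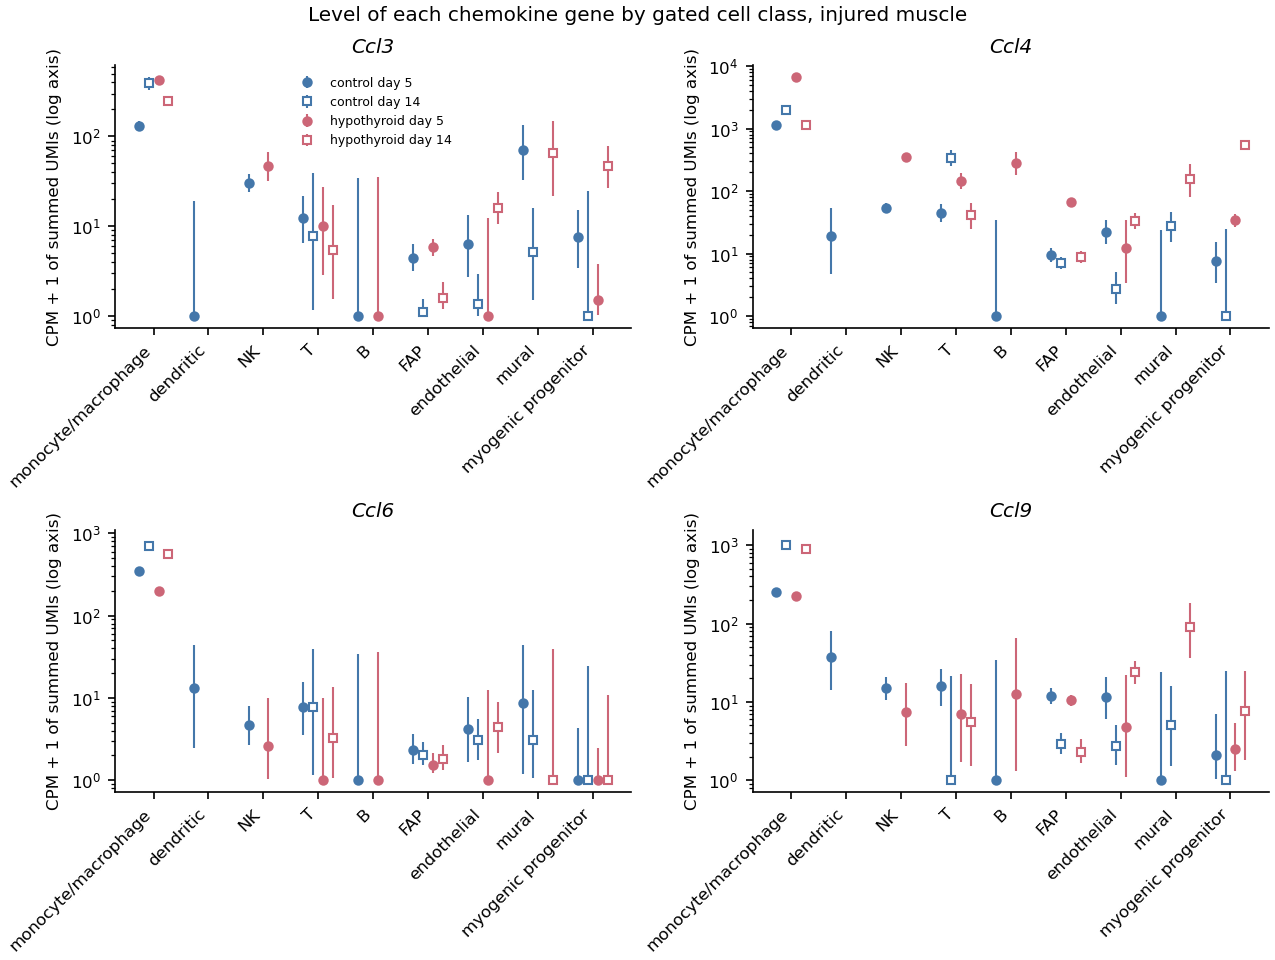
Level of each gene (CPM + 1 of summed UMIs, log axis) in gated cell classes of the 4 injured libraries with at least 20 cells, with 95% Poisson intervals. Filled circles are day 5, open squares day 14, and points at 1 had no UMI. The monocyte/macrophage pools lie highest for all 4 genes.

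NK cells are another known source of Ccl3 and Ccl4, and the levels in them were lower here. In control muscle on day 5, Ccl4 stood at 1136 CPM in 325 monocyte/macrophage cells and 52.3 CPM in 542 NK cells, which is 21.7-fold (18.2 to 26.2). In hypothyroid muscle on day 5 the levels were 6574 and 349 CPM, which is 18.8-fold (16.5 to 21.6). Ccl3 had ratios of 4.48 (3.42 to 5.93) and 9.07 (6.30 to 13.6) in these libraries. Ccl6 was 93.1 times higher (48.7 to 204) in control muscle on day 5, with 9 UMIs in NK cells. In control muscle on day 14, none of the 4 genes had a UMI in 14 NK cells. Against the limit of 3 UMIs in that pool, Ccl4 was at least 21.4-fold higher in monocyte/macrophage cells.

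Some small pools stood apart. The 17 neutrophil-gated cells of control day 5 had Ccl3 at 1087 CPM (780.0 to 1474) from 41 UMIs in 8 cells. Of these cells, 14 carried 3 or more macrophage markers, which summed to 5328 CPM, and their part in the Ccl3 value was not tested. Those neutrophils had no Ccl9 UMI, which allows up to 79.5 CPM. Among the 7 myocyte-gated cells of hypothyroid day 5, 1 cell held 143 of 148 Ccl4 UMIs. Macrophage markers in those cells summed to 1793 CPM, and their part in this value was not tested.

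On day 5, Ccl3 and Ccl4 were higher in hypothyroid than in control monocyte/macrophage cells, and Ccl6 was lower. Control cells held Ccl4 at 1136 CPM (1087 to 1187) and hypothyroid cells at 6574 CPM (6505 to 6644), a 5.79-fold difference (5.53 to 6.06). For Ccl3 the levels were 131 and 419 CPM, a 3.20-fold difference (2.80 to 3.68). Both passed 2-fold, against 9.86% of 9033 genes past 2-fold higher. Ccl6 stood at 345 CPM in the control library and 196 CPM in the hypothyroid library, or 0.570 of the control level (0.515 to 0.631). Ccl9, at 255 and 224 CPM, had a ratio of 0.881 (0.790 to 0.985) beside a median gene at 0.868. None of the 4 passed 2-fold lower in summed CPM, against 14.4% of genes. Ccl6 did so as a mean over cells, at 0.409, and with each cell thinned to 1000 UMIs, at 0.397. With the cells taken from clusters in place of the gate, Ccl4 had a ratio of 9.39, Ccl6 of 0.898 and Ccl9 of 1.23, which turned its direction. As a mean over cells, Ccl4 had a ratio of 9.61, and with thinned cells Ccl9 had one of 0.525.

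The gated cells of the day 5 libraries differed in makeup. Complement C1q is made by mature tissue macrophages, and 96 of 325 control cells (29.5%) but 501 of 614 hypothyroid cells (81.6%) had at least 2 of its 3 chains. Within these C1q-positive cells, Ccl4 stood at 2242 CPM in the control and 7112 CPM in the hypothyroid library, a 3.17-fold difference (3.01 to 3.34). Ccl3 had a ratio of 2.32 (1.94 to 2.79) there, and Ccl6 one of 0.580 (0.503 to 0.672). In C1q-negative cells the ratios were 2.58 (2.28 to 2.93) for Ccl4, 1.57 (1.14 to 2.16) for Ccl3 and 0.478 (0.362 to 0.622) for Ccl6. The C1q-negative value of Ccl3 pooled opposite directions. Among C1q-negative cells with high MHC class II genes, which present antigen, the control library held 20.9 CPM (12.4 to 33.0) and the hypothyroid library 159 CPM (123 to 202), and among those low in them it was at 417 CPM (331 to 519) and 42.5 CPM (5.15 to 154). The last value rests on 2 UMIs in 15 cells. Among the cells high in these genes, Ccl6 was at 153 CPM (128 to 182) in control and 135 CPM (102 to 175) in hypothyroid muscle. Among those low in them, Ccl6 was at 974 CPM and 234 CPM (117 to 419), the latter from 11 UMIs. Outside the gate, FAPs held Ccl4 at 66.8 CPM in the hypothyroid and 8.59 CPM in the control library of day 5. The part of free RNA in these values was not tested.

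On day 14 the order of the diets for Ccl4 was the opposite. Control cells held Ccl4 at 1990 CPM (1850 to 2138) and hypothyroid cells at 1131 CPM (1070 to 1195), a ratio of 0.568 (0.519 to 0.623). Ccl3 was at 388 and 246 CPM, a ratio of 0.635 (0.518 to 0.782). With all columns of the files in place of the first run, the Ccl3 ratio was 1.10, so its direction did not hold. Ccl6, at 707 and 565 CPM, had a ratio of 0.800 (0.692 to 0.926), which was 1.21 with all columns and 1.03 with clusters. Ccl9 was at 1012 and 905 CPM, a ratio of 0.894 (0.794 to 1.01), whose interval includes 1. None of the 4 passed 2-fold either way, against 10.1% of 5285 genes higher and 4.09% lower. In C1q-positive cells alone, Ccl4 had a ratio of 0.470 (0.426 to 0.519). Beside these values, myocyte markers in the gate summed to 8057 CPM in the control library, against 2141 CPM in the hypothyroid one. The 12 immediate early and heat shock genes, which handling of tissue can raise, summed to 6835 and 4368 CPM, with a median ratio of 0.733 beside 1.01 over all genes, and Hspa1a and Hspa1b, both heat shock protein genes, were past 2-fold lower. The part of either in the day 14 ratios was not tested.

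**Figure D2:**
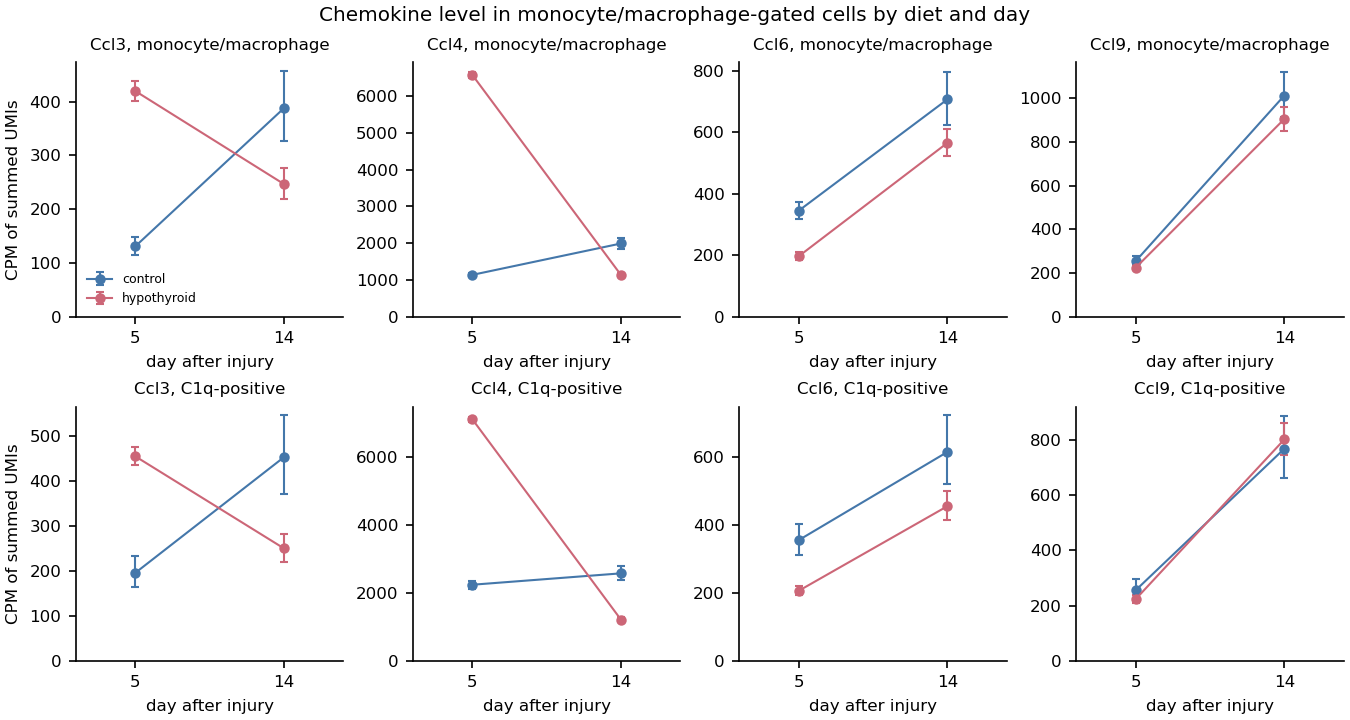
CPM of summed UMIs on days 5 and 14 after injury, control in blue and hypothyroid in red, for all monocyte/macrophage-gated cells (top) and C1q-positive cells (bottom). Bars are 95% Poisson intervals, and 1 library stands behind each point. The lines of Ccl3 and Ccl4 cross between the days, and those of Ccl6 and Ccl9 end higher in both diets.

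Over whole libraries on day 14, all 4 genes were higher in hypothyroid muscle, where the gate held 7.88% of cells against 2.67% in control. The ratios were 2.68 (2.22 to 3.24) for Ccl3, 2.14 (1.98 to 2.31) for Ccl4, 2.94 (2.57 to 3.36) for Ccl6 and 3.29 (2.96 to 3.68) for Ccl9. On day 5 the whole-library ratio of Ccl4 was 10.1 (9.74 to 10.6), and that of Ccl6 was 1.02 (0.926 to 1.13). Uninjured muscle held 26 Ccl4 UMIs in the control and 1 in the hypothyroid library. Of the former, 25 were in 1 NK-gated cell. The 8 gated cells of uninjured hypothyroid muscle held Ccl6 at 343 CPM (228 to 496) and Ccl9 at 245 CPM (150 to 379). These values rest on 28 and 20 UMIs. The 2 gated cells of uninjured control muscle held 4 UMIs of Ccl6 and 2 of Ccl9.

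From day 5 to day 14, Ccl9 and Ccl6 were higher on the later day in both diets. Ccl9 was higher 3.98-fold (3.46 to 4.57) in control and 4.03-fold (3.71 to 4.39) in hypothyroid cells. Ccl6 was higher 2.05-fold (1.77 to 2.37) and 2.88-fold (2.60 to 3.18). Ccl3 was higher 2.96-fold (2.39 to 3.66) in control cells and was at 0.588 of its day 5 level (0.517 to 0.666) in hypothyroid cells. Ccl4 was 1.75 times its day 5 level (1.61 to 1.91) in control cells, and in hypothyroid cells it was 0.172 of it (0.163 to 0.182). In control cells 3 of the 4 genes passed 2-fold higher, against 5.4% of 6724 genes, and none passed 2-fold lower, against 19.3%. In hypothyroid cells Ccl6 and Ccl9 passed 2-fold higher, against 5.87% of 8994 genes, and Ccl4 passed 2-fold lower, against 9.18%. These comparisons share libraries with those between diets. C1q-positive cells made up 29.5% of the control gate on day 5 and 69.3% on day 14, against 81.6% and 85.4% in hypothyroid muscle. Within control C1q-positive cells the ratio of day 14 over day 5 was 1.15 (1.05 to 1.26) for Ccl4, 2.31 for Ccl3, 1.73 for Ccl6 and 3.00 for Ccl9, so that Ccl6 did not pass 2-fold there. Within control C1q-negative cells Ccl4 turned, with a ratio of 0.515 (0.338 to 0.753), and Ccl3, Ccl6 and Ccl9 had ratios of 2.25, 2.80 and 5.60. Within hypothyroid C1q-positive cells the ratios were 0.550 for Ccl3, 0.170 for Ccl4, 2.21 for Ccl6 and 3.58 for Ccl9.

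Other signs moved between the days as well. Of 12 immediate early and heat shock genes, 8 were past 2-fold higher on day 14 in control cells, against 0 in hypothyroid cells. Over all genes these shares were 5.4% and 5.87%. The list had a median ratio of 2.22 in control and 1.39 in hypothyroid cells, beside 0.833 and 1.02 over all genes. Myocyte markers went from 1119 to 8057 CPM in control cells and from 137 to 2141 CPM in hypothyroid cells. How this muscle RNA came to be in the gate was not tested. The part of either sign in the ratios between days was not tested.

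**Figure D3:**
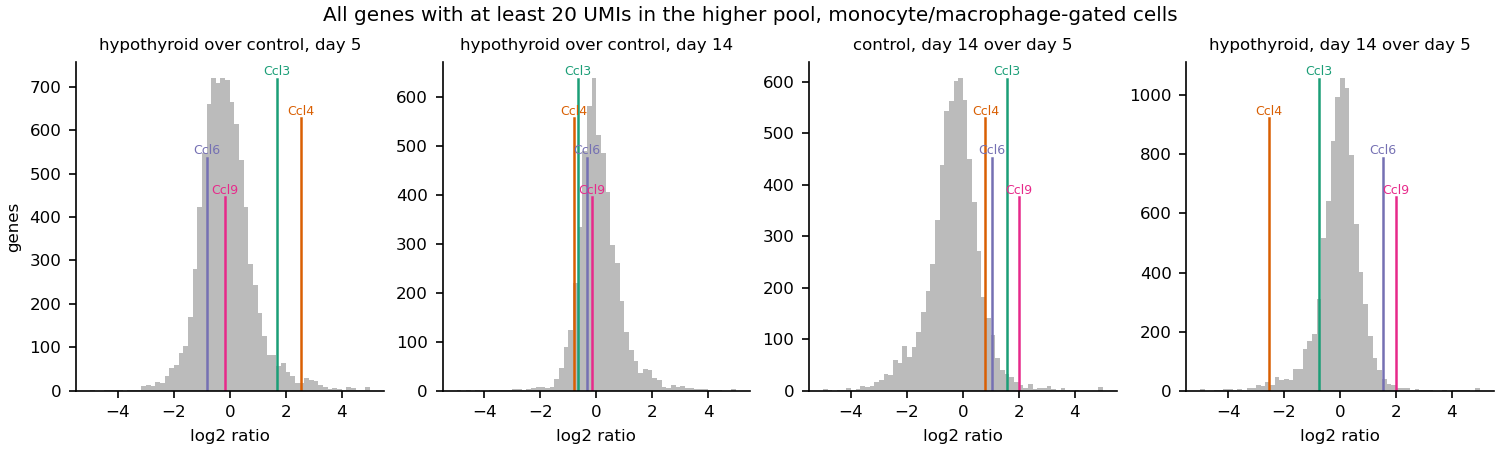
Log2 ratios of all genes of 20 UMIs or more in the higher pool of monocyte/macrophage-gated cells (grey, number of genes), with the 4 genes as vertical lines. Genes at 0 in 1 pool are not drawn. Ccl4 lies on the right on day 5 between diets and on the left between days in hypothyroid cells, and Ccl9 lies on the right between days in both diets.

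Within each library, Ccl3 and Ccl4 were higher in C1q-positive cells than in all C1q-negative cells together. Ccl6 and Ccl9 had no single direction. Against the MHC class II-low part of the C1q-negative cells alone, Ccl3 was lower in control day 5, as given below. Ccl4 was higher in C1q-positive than C1q-negative cells by 4.89 times (4.41 to 5.43) in control day 5 and 10.9 times (7.49 to 16.6) in control day 14. In hypothyroid day 5 its levels were 7112 and 1184 CPM, and the interval of their ratio was 5.52 to 6.54. Ccl3 was higher by 2.09 (1.59 to 2.74), 2.15 (1.38 to 3.46) and 3.08 times (2.42 to 3.98) in the same 3 libraries. Both thus passed 2-fold higher in all 3 libraries with at least 10 cells on each side, against 8.91% of 1784 genes. Ccl6 had ratios of 1.17, 0.722 and 1.42, and Ccl9 of 1.06, 0.570 and 1.08. No gene of the 4 passed 2-fold lower in all 3, against 2.97%. The C1q-negative pool of control day 14 held 22 cells. With all columns of the files, the median log2 ratio of Ccl3 over the libraries was 0.54 in place of 1.07. With 3 libraries no test was run.

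**Figure D4:**
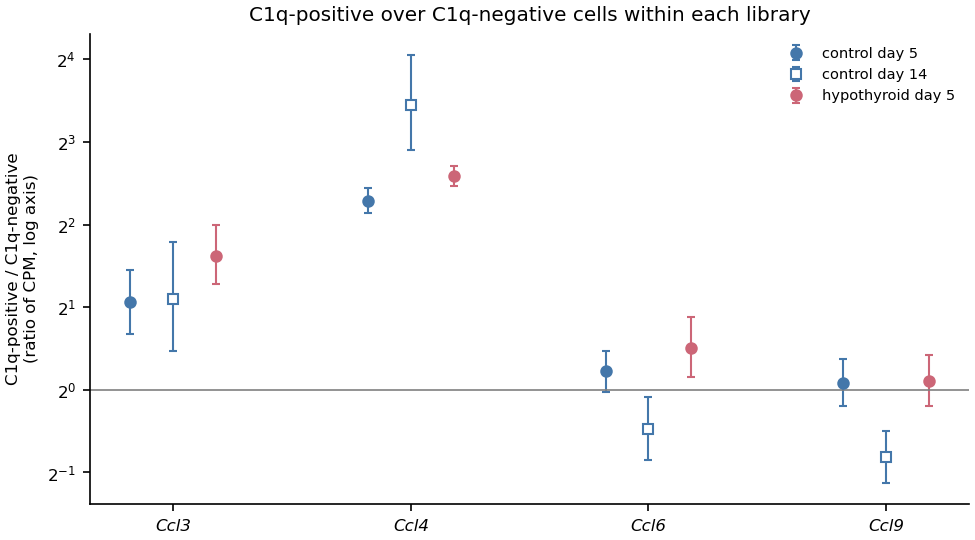
Ratio of CPM in C1q-positive over C1q-negative monocyte/macrophage-gated cells (log axis) in each of the 3 libraries with at least 10 cells on both sides, with 95% intervals. The grey line is a ratio of 1. Ccl3 and Ccl4 lie above it in each library, and Ccl6 and Ccl9 lie on both sides.

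The C1q-negative cells of control day 5 were not alike. Of 219 such cells, 168 carried at least 3 of 4 MHC class II genes, and 51 did not. Ccl6 was at 153 CPM (128 to 182) in the MHC class II-high and 974 CPM (839.8 to 1123) in the MHC class II-low cells. Ccl4 was at 148 CPM in the former and 1834 CPM (1648 to 2035) in the latter, beside 2242 CPM in C1q-positive cells. Ccl3 was at 20.9 and 417 CPM (331 to 519), and Ccl9 at 206 and 392 CPM. C1q-positive cells held Ccl3 at 196 CPM (163 to 232), below the MHC class II-low cells. All 4 genes were lower in the MHC class II-high cells of this library. In hypothyroid day 5, with 71 and 15 such cells, Ccl4 was at 935 and 3425 CPM, Ccl6 at 135 and 234 CPM, and Ccl9 at 178 and 468 CPM. Ccl3 there was in the other order, as given above, beside 454 CPM in C1q-positive cells. In control day 5, Ccl6 was detected in 52.1% of C1q-positive, 31.0% of MHC class II-high and 56.9% of MHC class II-low cells, at medians of 5662, 4866 and 3882 UMIs per cell.

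The UMIs were unevenly spread over cells. The highest 10% of control day 5 cells held 88.7% of Ccl3 and 91.1% of Ccl4 UMIs, but 69.6% of Ccl6 and 57.9% of Ccl9 UMIs. In hypothyroid day 5 cells the highest 10% held 57.4% of Ccl4. With each cell thinned to 1000 UMIs, 17.7% of 317 control (13.6 to 22.3) and 60.1% of 587 hypothyroid cells (56.0 to 64.1) had a Ccl4 UMI on day 5. Before thinning the shares were 29.8% and 77.9%, at medians of 4719 and 6510 UMIs. FAPs, a stromal class set beside them, had 0.718% and 2.89% at the same fixed depth, and 3.08% and 20.7% unthinned at medians of 12872 and 13875 UMIs. Thinned shares for Ccl3 were 6.62% and 24.2%, and for Ccl6 20.8% and 12.1%. On day 14 the thinned Ccl4 shares, 20.5% (12.4 to 30.8) in control and 28.2% (20.5 to 37.0) in hypothyroid cells, overlapped in their intervals and ran against the CPM, so no order is read from them. Thinning left out 8 and 27 cells of control and hypothyroid day 5, and 5 and 6 of day 14.

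**Figure D5:**
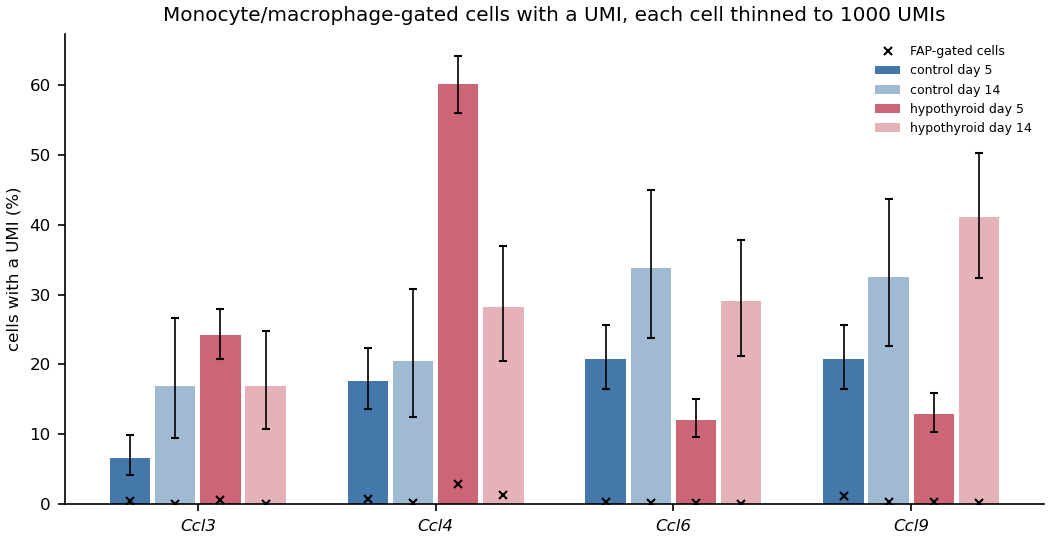
Share of monocyte/macrophage-gated cells (%) with at least 1 UMI after thinning each cell to 1000 UMIs, with 95% Clopper-Pearson intervals. Crosses give the same share in FAP-gated cells of that library. Ccl4 on day 5 shows 60.1% in hypothyroid against 17.7% in control cells.

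A larger share of cells with Ccl3 than of cells without it had Ccl4 on day 5. At the fixed depth, it was present in 15 of 21 Ccl3-positive cells (71.4%) and 41 of 296 Ccl3-negative cells (13.9%) in control day 5. In hypothyroid day 5 it was present in 128 of 142 (90.1%) and 225 of 445 (50.6%). Ccl9 was present in 26 of 66 Ccl6-positive (39.4%) and 40 of 251 Ccl6-negative cells (15.9%) in control day 5. Ccl6 had no single order between cells with and without Ccl4. It was present in 17 of 56 Ccl4-positive cells (30.4%) and 49 of 261 Ccl4-negative cells (18.8%) in control day 5, and in 45 of 353 Ccl4-positive cells (12.7%) and 26 of 234 Ccl4-negative cells (11.1%) in hypothyroid day 5. On day 14 it was present in 4 of 17 Ccl4-positive cells (23.5%) and 24 of 66 Ccl4-negative cells (36.4%) in control, and in 3 of 35 Ccl4-positive cells (8.57%) and 33 of 89 Ccl4-negative cells (37.1%) in hypothyroid muscle. The intervals overlapped in the first 3 of these libraries and not in hypothyroid day 14. Doublets were not removed, and their part here was not tested.

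Ccr1 was measured in the same cells. This receptor of Ccl3, Ccl6 and Ccl9 reached 125 CPM in the control and 78.8 CPM in the hypothyroid gate on day 5. On day 14 it was at 50.5 and 142 CPM. Ccr1 was at most 18.1 CPM in any other class of at least 20 cells.

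Among 13 other CC ligands measured, 10 had enough UMIs on day 5, of which 6 were past 2-fold higher in hypothyroid cells and 1 lower. Over all genes of the gate these shares were 9.86% and 14.4%, and the lists of the whole gate that follow are to be read against them. The median ratio of these ligands was 4.22, beside 0.868 over all genes. Ccl2, which recruits monocytes, was at 226 and 1145 CPM, a ratio of 5.07 (4.58 to 5.63). Ccl5 and Ccl7 had ratios of 4.79 (4.39 to 5.23) and 3.66 (3.23 to 4.16). On day 14, Ccl2 and Ccl7 were at 0.607 and 0.400 of the control level, and Ccl5 at 1.35 times it. FAP markers in control and hypothyroid gates summed to 460 and 1347 CPM on day 5, and to 847 and 556 CPM on day 14. The part of stromal RNA in these ligand ratios was not tested. Of 13 inflammatory genes with enough UMIs, 2 (Il1a and Cxcl1) were higher and 1 lower on day 5, near the share over all genes. That lower gene was Il1b, the interleukin 1 beta gene, with 2398 CPM in the control library and 929 CPM in the hypothyroid one. Cxcl2 and Cxcl10, also among the genes of that list with the most UMIs, had ratios of 1.62 and 0.583. Of 10 monocyte genes none was higher and 6 were lower, with Plac8 at 963 and 167 CPM. Thbs1 and Fn1, likewise rich in UMIs, had ratios of 0.723 and 0.568. Of 12 resident and repair genes 4 were higher and 1 lower, with Apoe, a lipid carrier, at 5042 and 20072 CPM. Spp1 and Fabp5, likewise rich in UMIs, had ratios of 0.934 and 1.67. None of the 12 immediate early and heat shock genes passed 2-fold on day 5. Within C1q-positive cells the counts differed. The share of all genes past 2-fold was not counted in these cells, so the counts have no such share beside them. Over all genes there the median ratio was 0.860, with 5% and 95% quantiles of 0.431 and 2.54. Of resident and repair genes 0 of 11 were higher and 2 lower, and of inflammatory genes 4 of 13 were higher and 0 lower. Of monocyte genes 1 of 9 was higher and 3 were lower. Of other CC ligands 6 of 10 were higher and 1 lower, with a median ratio of 2.27, but these were not the same genes. Ccl7 was not among the higher ones there. Ccl22, the lower gene in the whole gate, was among them, and the lower gene was Ccl12.

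Over 39 pools of class by library, the genes most like Ccl6 were Clec4a3, Clec4a2, Fcrls, Csf1r and Hk3, with Pearson r of 0.96 to 0.97. Those most like Ccl9 were Fcgr1, Clec12a, Cd14, C3ar1 and Cd300a (0.94 to 0.95). Those most like Ccl3 were Cd14, Il1rn, Ms4a7, Lrrc25 and Acod1 (0.88 to 0.90), and those most like Ccl4 were C1qb, Ms4a7, Ccl3, Il1rn and C1qa (0.81 to 0.85). The pairs of the 4 genes over these pools ranged from 0.72 (Ccl4 against Ccl6) to 0.92 (Ccl6 against Ccl9). Within 9 pools of monocyte/macrophage subclasses, Ccl3 against Ccl4 gave 0.72 and Ccl6 against Ccl9 gave 0.71. Ccl4 gave -0.23 against Ccl6 and -0.23 against Ccl9, while Ccl3 gave 0.42 and 0.35 against them. These pools share libraries and cells of a kind, so the values are a description across pools.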

How the data were processed

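In Partek Flow, the authors aligned reads of 10x 3′ libraries to mm39 (Cell Ranger), removed cells by their UMI, gene and mitochondrial content, and deposited log2(CPM + 1) values per cell. Reads were assigned to the GENCODE transcript model. UMIs were recovered by taking each cell's most frequent value above 0 as 1 UMI, and 99.934% of 39334018 values were then whole within 0.1. Files hold 20269 columns in runs of ordered barcodes. Only the first run of each was used, which left out 9062 columns. Repeats of the values of another column made up 1680 of all columns, and 18589 different cells were present. Most of the columns left out were thus not repeats. Whether a first run matches its label was not checked.

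Members, lists and gates were chosen with earlier results of these data known. A class needed 3 markers and a lead of 10 percentage points over the next list, and myocytes 5% of UMIs in their list, a rule set after cells were seen. Genes counted past 2-fold had 20 UMIs in the higher pool. The rule named all 4 members, their receptors (only Ccr1 is reported here), at most 3 genes of each list with the most UMIs, and the 5 genes most like each member, correlated on log2(CPM + 10). Tests over libraries were planned from 4 libraries on, and 3 qualified, so none was run. Python 3.11.15, scipy 1.17.1 and scanpy 1.11.5 were used. Scripts were tested on simulated data. Strand use in counting was not stated, and antisense RNAs overlap this locus. Gene ends in the files lay 1 base past the GENCODE end for 1831 of 4032 genes with the same start and matched it for 76, so 1 base was taken off.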

Additional observations from a re-analysis of the deposited data

Results flagged for a closer look

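Ccl4 and Ccl3 differed between diets in opposite directions on days 5 and 14 in monocyte/macrophage-gated cells. Hypothyroid over control, Ccl4 stood at 5.79 on day 5 and 0.568 on day 14, and Ccl3 at 3.20 on day 5 and 0.635 on day 14. With all columns of the files, Ccl3 on day 14 stood at 1.10. Each value rests on 1 library a diet and day, and the difference between the days was not tested.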

How the results depend on the processing

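Ratios of hypothyroid over control that left their interval are given by setting, for Ccl3, Ccl4, Ccl6 and Ccl9. With 5 markers in the gate, day 5 gave 3.91 (Ccl3) and 5.48 (Ccl4). With Leiden clusters, day 5 gave 9.39 (Ccl4), 0.898 (Ccl6) and 1.23 (Ccl9), and day 14 gave 0.832 (Ccl3), 1.03 (Ccl6) and 1.10 (Ccl9). With all columns, day 5 gave 2.24 (Ccl3), 4.82 (Ccl4) and 0.650 (Ccl9), and day 14 gave 1.10 (Ccl3), 0.827 (Ccl4), 1.21 (Ccl6) and 1.04 (Ccl9). As a mean over cells of CPM, day 5 gave 3.95 (Ccl3), 9.61 (Ccl4), 0.409 (Ccl6) and 0.606 (Ccl9), and day 14 gave 0.716 (Ccl4) and 0.689 (Ccl6). With cells thinned to 1000 UMIs, day 5 gave 4.12 (Ccl3), 8.66 (Ccl4), 0.397 (Ccl6) and 0.525 (Ccl9), and day 14 gave 0.794 (Ccl4). In settings chosen after seeing the data, C1q-positive cells gave 2.32 (Ccl3) and 3.17 (Ccl4) on day 5, and 0.470 (Ccl4) and 1.04 (Ccl9) on day 14. C1q-negative cells gave 1.57 (Ccl3), 2.58 (Ccl4) and 0.478 (Ccl6) on day 5. Ccl3, Ccl4 and Ccl6 on day 5 and Ccl4 on day 14 kept their direction in every setting run. The cause of the other moves was not tested.

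For C1q-positive over C1q-negative cells, the median log2 ratio with all columns was 0.54 (Ccl3) and -0.30 (Ccl6), and with thinned cells -0.59 (Ccl6) and -0.50 (Ccl9). Leaving out each library gave 1.03 to 1.31 (Ccl3), 2.42 to 2.99 (Ccl4), -0.12 to 0.35 (Ccl6) and -0.36 to 0.10 (Ccl9). For monocyte/macrophage over NK cells, leaving out each library gave 2.39 to 4.12 (Ccl3), 4.20 to 5.92 (Ccl4), 4.42 to 5.43 (Ccl6) and 3.65 to 5.26 (Ccl9). Ccl6 there was at 6.25 with 1 CPM added and 2.88 with 50 CPM added. The share of all genes past 2-fold on day 14 was 37.8% with no filter on UMIs, against 14.2%. The alternative with no filter on low genes was not run for these contrasts, since the planned fit needed 4 libraries and 3 qualified. No paired analysis was possible because each condition had 1 library. Few cells, and so few UMIs in all, limit the uninjured gates, with 2 control and 8 hypothyroid cells. The same holds for the 14 NK cells of control day 14, in which no UMI of the 4 genes was found.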
